A study of Mus musculus with 8 samples.

Results

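The HoxD cluster on mouse chromosome 2 was examined through its CpG islands, which are stretches of DNA rich in the CpG dinucleotide where cytosine can be methylated. Of the 13840 CpG islands listed in the deposited table of the whole genome, 12 lay in or beside the HoxD cluster, and 6 of these had a methylation level in the 8 libraries. The rule for those 6 was that they were listed for the Hox clusters on chromosome 2 and had values, and it set no limit on the level. In all, 7461 of the 13840 islands had values, among them 28 of the 46 islands that were listed at the 4 Hox clusters.

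The assay was reduced representation bisulfite sequencing (RRBS), which cuts genomic DNA at CCGG sites, converts short fragments with bisulfite and reads them from their ends. It was applied to primary lines of mouse embryonic stem cells (mESCs) that came from male blastocysts of C57BL/6 mothers and Castaneus fathers, collected on days 2 and 2.5 of differentiation towards neuromesodermal progenitors (NMPs), the precursors of trunk spinal cord and paraxial mesoderm. Smchd1 wt lines were Smchd1 fl/+, with an intact floxed allele from the mother, and Smchd1 matΔ lines were Smchd1 del/+, from oocytes in which Smchd1 had been deleted with Zp3-Cre, a Cre recombinase driven by an oocyte promoter. Each genotype was represented by 2 lines and each line by 1 library per day, so that the 4 groups held 2 libraries each. Both genotypes inherited a wild-type Smchd1 allele from the father, and day 2.5 came after activation of Wnt signalling in the medium, which was begun on day 2 in both. The genotype of a library cannot be checked from these values, since they carry no expression.

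Hox genes encode homeodomain transcription factors that give position to cells along the body axis. Within a cluster they are switched on one after the other in the order in which they lie on the chromosome, from the anterior genes (Hoxd1, Hoxd3 and Hoxd4) through the central Hoxd8 to the posterior genes (Hoxd9 to Hoxd13), which also pattern the limb and the genital bud. In stem cells the CpG islands of the clusters are largely free of DNA methylation and are held silent by Polycomb proteins. SMCHD1 is a chromatin protein with roles in X inactivation and genomic imprinting, and the study asked whether the supply of SMCHD1 from the oocyte affects methylation over Hox islands.

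Along the plus strand of GRCm38, from the posterior to the anterior end, the islands with values began with chr2:74697731-74698814, which started 4 bp after the annotated transcript start of Hoxd9 and held 759 bp of its coding sequence. The next, chr2:74704728-74706004, covered the transcript start of Hoxd8, and chr2:74711843-74712395 covered the first exon of a Hoxd3 transcript together with transcript starts of Hoxd4 and of the antisense RNA Hoxd3os1. Further on, chr2:74746372-74747291 lay in the last exon of Hoxd3, with 705 bp of its coding sequence. The last pair, chr2:74749625-74750064 and chr2:74752889-74753402, lay over exons of Haglr, a long noncoding RNA transcribed on the opposite strand between Hoxd3 and Hoxd1, and the second of them also over the noncoding RNA Gm14424. They are named here Hoxd9, Hoxd8, Hoxd3 first exon, Hoxd3 last exon, Haglr, and Haglr and Gm14424.

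What RRBS can read in these islands is set by their CCGG sites. To show how the CpGs lie, 1 fragment between neighbouring CCGG sites is given for Hoxd9, for Hoxd8 and for both Haglr islands. Each is the fragment with the most CpGs among those of its island with little or no untranslated sequence, so others can hold fewer. The sequences are from the GRCm38.p6 reference, in lower case with every CpG in capitals, read 5′ to 3′ on the plus strand.
Hoxd9 coding sequence, chr2:74698166-74698287: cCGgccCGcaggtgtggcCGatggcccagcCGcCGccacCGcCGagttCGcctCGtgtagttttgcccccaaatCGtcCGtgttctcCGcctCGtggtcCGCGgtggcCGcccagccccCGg
Hoxd8 first coding exon, chr2:74705530-74705732: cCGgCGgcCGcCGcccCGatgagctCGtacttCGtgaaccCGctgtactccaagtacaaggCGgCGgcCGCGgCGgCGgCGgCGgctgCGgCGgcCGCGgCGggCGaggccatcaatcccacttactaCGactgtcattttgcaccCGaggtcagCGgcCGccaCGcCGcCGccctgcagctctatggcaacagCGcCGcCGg
Haglr exon, chr2:74749713-74749905: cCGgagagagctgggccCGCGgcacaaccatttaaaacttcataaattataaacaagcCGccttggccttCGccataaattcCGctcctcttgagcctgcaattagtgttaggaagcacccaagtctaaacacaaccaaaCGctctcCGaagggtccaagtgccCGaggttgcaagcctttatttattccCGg
Haglr and Gm14424 exon, chr2:74753193-74753299: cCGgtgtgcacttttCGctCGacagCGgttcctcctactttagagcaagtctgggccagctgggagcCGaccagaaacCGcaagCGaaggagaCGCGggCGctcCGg
The Hoxd9 fragment held 17 CpGs in 122 bp and the Hoxd8 fragment 32 CpGs in 203 bp, whereas the Haglr fragment held 10 CpGs in 193 bp and the last fragment 11 in 107 bp.

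The islands themselves differed in the same way. Hoxd8 was the longest and densest, with 192 CpGs in 1277 bp and 23 CCGG sites, followed by Hoxd9 with 122 CpGs in 1084 bp and 19 CCGG sites. The smallest was Haglr, with 34 CpGs in 440 bp and 4 CCGG sites. If fragments of 40 to 300 bp are read for 75 bp from each end, which are assumed sizes apart from the read length, 114 CpGs could be read in Hoxd8, 95 in Hoxd9, 63 in Hoxd3 last exon, 30 in Haglr, 29 in Haglr and Gm14424, and 21 in Hoxd3 first exon. These are counts from the sequence and not read depths, which are unknown here.

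The islands without values were those over Evx2 (a homeobox gene beside the posterior end), over the transcript start of Hoxd13, a pair at Hoxd11, 1 at the start of an internal Hoxd3 transcript, and 1 that covered the transcript starts of both Hoxd1 and Haglr. As a result, 4 of the 9 Hoxd genes (Hoxd9, Hoxd8, Hoxd4 and Hoxd3) had a transcript start within 2 kb of an island with values. The number was the same with a window of 5 kb. Hoxd4 had 1 start inside such an island, with 388 bp of noncoding exon there and no coding sequence. Its 3 transcripts started between positions 74711929 and 74727074. Whether a coding Hoxd4 transcript started near an island with values was not examined. The nearest such island lay 5807 bp from the start of Hoxd10, 9578 bp from Hoxd1, 15408 bp from Hoxd11, 22718 bp from Hoxd12 and 29421 bp from Hoxd13, so that nothing can be said here of methylation at the most posterior genes or at Hoxd1.

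The share of HoxD islands with values, 50.0%, was close to the 53.9% of all listed islands. Among all listed islands this share went up with the number of CCGG sites, from 14.2% of islands with 2 or 3 sites to 42.3% with 4 to 7, 63.5% with 8 to 15 and 74.1% with 16 or more. At HoxD the number of sites did not separate the islands, since those without values had 1 to 20 sites (median 11.5) and those with values 4 to 23 (median 10).

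All 6 islands were lowly methylated in every library, and the highest level of the 48 was 7.69%. Averaged over the 8 libraries, the level was 1.38% at Hoxd9, 0.355% at Hoxd8, 0.3999% at Hoxd3 first exon, 2.88% at Hoxd3 last exon, 2.79% at Haglr and 0% at Haglr and Gm14424. In order from low to high, Hoxd8 and Hoxd3 first exon did not differ beyond the SD between lines of a group, which was 0.347 and 0.363 percentage points, nor did Haglr and Hoxd3 last exon, with SDs of 3.51 and 1.53. The islands at the Hoxd8 and Hoxd3 transcript starts thus lay near the middle of all islands with values, of which 41.2% and 49.0% had a lower mean. Hoxd9, Hoxd3 last exon and Haglr stood higher in that order, with 87.8%, 93.6% and 93.4% of islands below them.

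**Figure D1:**
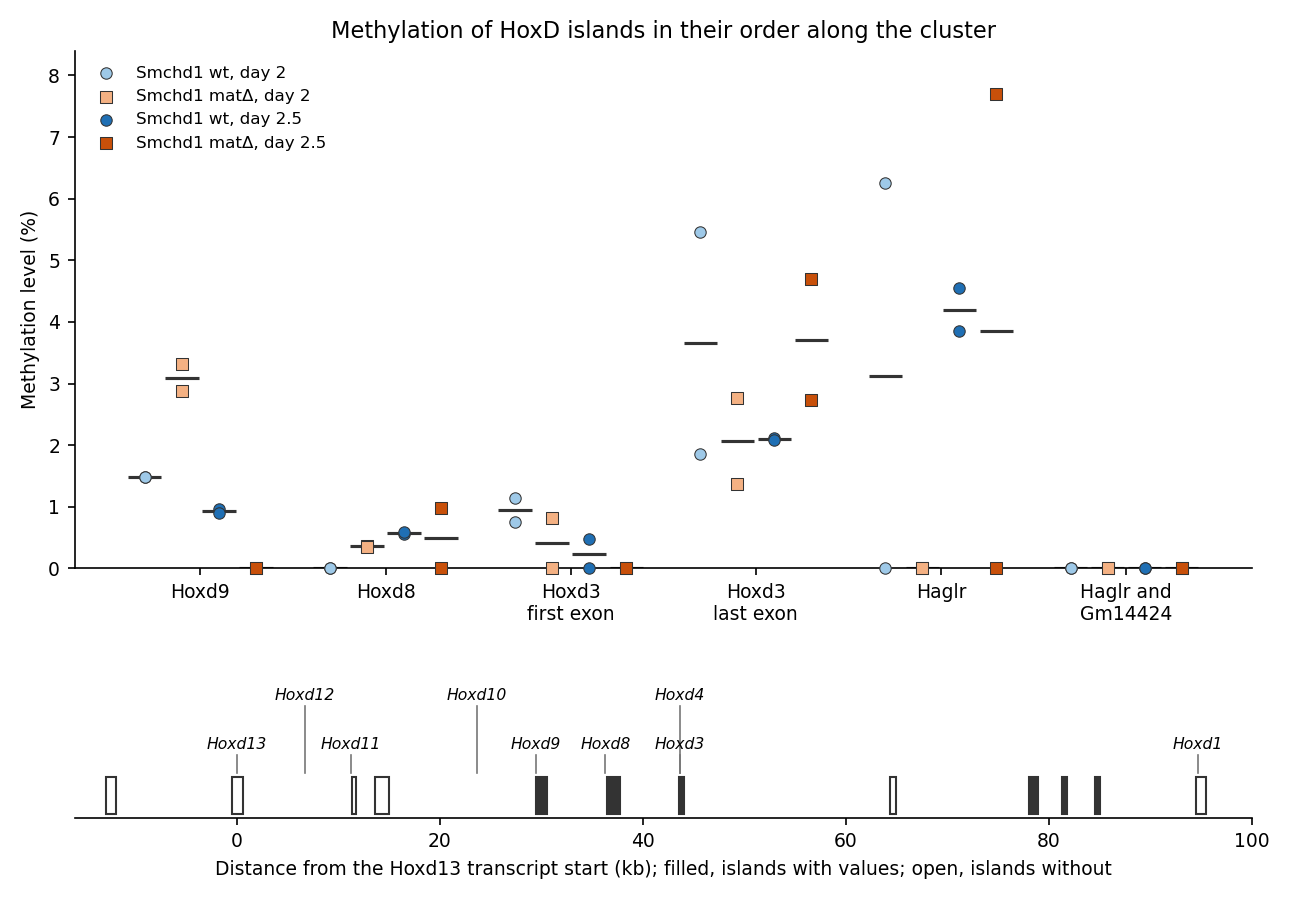
Methylation level (%) of the 6 HoxD islands with values, in their order along the chromosome, with each point 1 library, circles Smchd1 wt, squares Smchd1 matΔ, pale symbols day 2, dark symbols day 2.5 and bars group means of 2 lines. The map shows the 12 listed islands by distance in kb from the Hoxd13 transcript start, filled where values exist. No island passes 7.69%, and the posterior end of the cluster holds islands without values only.

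At Hoxd9, which encodes a posterior homeodomain factor, the groups were the most clearly separated of the HoxD islands. On day 2 the level was 1.49% in both Smchd1 wt lines, whereas the Smchd1 matΔ lines were at 2.88% and 3.31%. On day 2.5 it was 0.962% and 0.893% in Smchd1 wt and 0% in both Smchd1 matΔ lines. The Smchd1 matΔ libraries were thus the highest on day 2 and the lowest on day 2.5, and no group overlapped with another. Such a separation of all 4 groups was found at 35 of the 7196 islands that differed between any libraries (0.486%). Libraries higher in Smchd1 matΔ on day 2 and lower on day 2.5, without overlap at either day, were found at 138 islands (1.92%), and the opposite order at 103 (1.43%).

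The Hoxd9 level on day 2 averaged 1.49% ± 0.00222 (SD, n = 2) for Smchd1 wt and 3.10% ± 0.308 (SD, n = 2) for Smchd1 matΔ, a difference of 1.61 percentage points with a 95% interval of 0.708 to 2.51. With limma and Benjamini-Hochberg adjustment over all islands the difference did not pass an adjusted p of 0.05 (unadjusted p = 0.00429, adjusted p = 0.652). On day 2.5 it was -0.927 percentage points (95% interval -1.83 to -0.0282, limma unadjusted p = 0.0450, adjusted p = 0.960). Both intervals left out 0 in this fit and lay on opposite sides of it, but neither did so under every alternative. On day 2 the unadjusted p was 0.0789 on a log2 scale and 0.0506 over islands with a mean of at least 1%. On day 2.5 it was 0.217 over islands with a mean of at least 1%, 0.149 with robust moderation, 0.0524 with only the 4 libraries of that day and 0.0959 with lines as a replicate block, and it was 0.0582 to 0.0731 when any 1 of those 4 libraries was left out. The test of the change in genotype difference between the days, the interaction in the limma fit, gave -2.53 ± 0.529 (SE), with an unadjusted p of 0.00246 and an adjusted p of 0.867, so that it did not pass either.

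Within lines, Hoxd9 was lower on day 2.5 than on day 2 in 4 of 4 lines, as were 282 of the 7196 islands (3.92%). The difference between the days was -0.527 and -0.598 percentage points for Smchd1 wt and -2.88 and -3.31 for Smchd1 matΔ. For Smchd1 matΔ the limma estimate was -3.10 (95% interval -3.995 to -2.20), which had the third smallest p of the 7196 islands (unadjusted p = 0.000112) and an adjusted p of 0.212. For Smchd1 wt it was -0.562 (95% interval -1.46 to 0.337, adjusted p = 0.986). This fit did not pair the days by line. With lines as a replicate block the adjusted p of the Smchd1 matΔ difference was higher, as given below. The Smchd1 matΔ difference passed when a day 2 library of that genotype was left out, with a limma adjusted p of 0.0236 without line 1 and 0.0366 without line 2. Those fits called further islands that had no spread left between lines, and over islands with such spread, a restriction chosen after seeing the data, the adjusted p was 0.250 to 0.403 and Hoxd9 was not called.

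**Figure D2:**
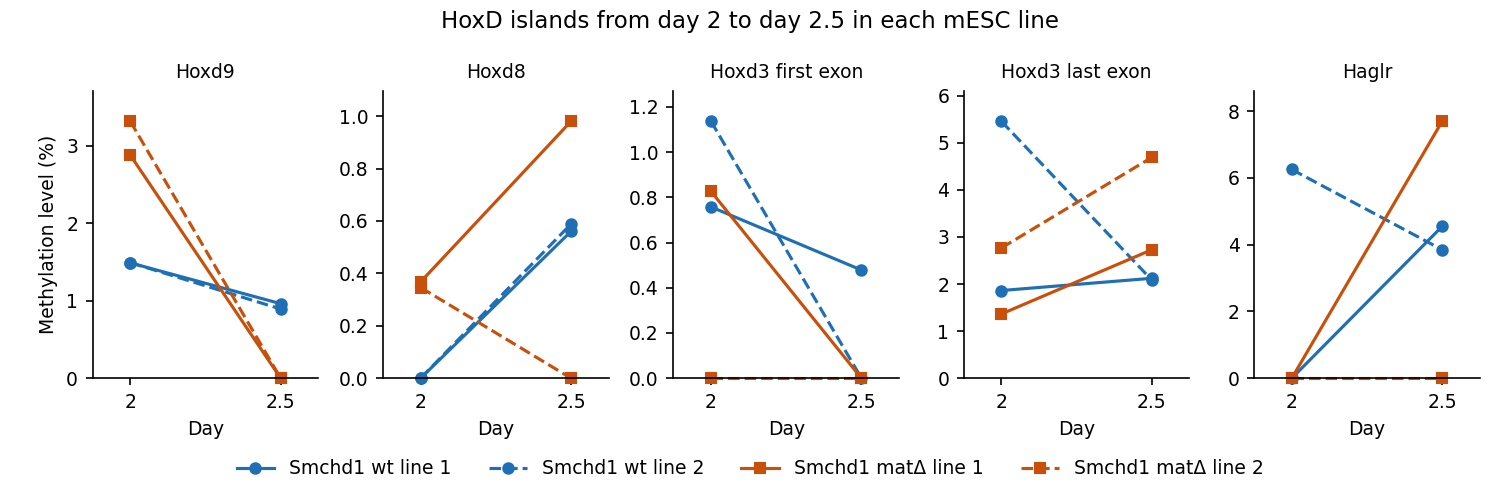
Methylation level (%) on days 2 and 2.5 in each of the 4 mESC lines, with 1 panel per HoxD island and its own vertical axis. Hoxd9 is lower on day 2.5 in all 4 lines and is at 0% in both Smchd1 matΔ lines, while lines of 1 genotype cross or diverge at Haglr.

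Hoxd8, the central gene of the cluster, had levels under 1% in every library. It was listed at 0% in both Smchd1 wt lines on day 2, whereas the Smchd1 matΔ lines had 0.368% and 0.346%. By day 2.5 the Smchd1 wt lines had 0.560% and 0.588%, and lines 1 and 2 of Smchd1 matΔ had 0.980% and 0%. The genotypes did not overlap on day 2, and both Smchd1 wt lines were higher on day 2.5 than on day 2, but the Smchd1 matΔ lines went opposite ways. These separations lay between 0% and levels under 1%, whose depth is unknown and which can rest on few methylated reads. The genotype difference was 0.36 percentage points on day 2 (95% interval -0.529 to 1.24) and -0.0840 on day 2.5 (95% interval -0.970 to 0.802), and the difference between the days was 0.574 in Smchd1 wt (95% interval -0.311 to 1.46), none of which passed in the limma fit. On day 2.5 the sign rested on Smchd1 matΔ line 2, since without it the genotype difference was 0.406.

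The island over the first exon of a Hoxd3 transcript also held a start of a noncoding Hoxd4 transcript. Both are anterior genes that pattern the neck vertebrae and hindbrain. On day 2 the island was at 0.758% and 1.14% in Smchd1 wt and at 0.826% and 0% in Smchd1 matΔ. On day 2.5 it was at 0.478% and 0% in Smchd1 wt and at 0% in both Smchd1 matΔ lines. No line had a higher level on day 2.5 than on day 2. In Smchd1 wt the days did not overlap, at levels of at most 1.14% and of unknown depth. Their difference was -0.708 percentage points (95% interval -1.65 to 0.233, limma adjusted p = 0.986). The genotypes overlapped on both days, with differences of -0.534 (95% interval -1.47 to 0.407) and -0.239 (95% interval -1.18 to 0.702). Leaving out 1 library moved the day 2 difference to between -0.947 (without Smchd1 matΔ line 1) and -0.121 (without Smchd1 matΔ line 2), and the day 2.5 difference to between -0.478 (without Smchd1 wt line 2) and 0 (without Smchd1 wt line 1).

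In the last exon of Hoxd3 no library was at 0%. On day 2 the level was 1.86% and 5.45% in Smchd1 wt and 1.36% and 2.77% in Smchd1 matΔ. The day 2.5 levels were 2.12% and 2.08% in Smchd1 wt and 2.73% and 4.69% in Smchd1 matΔ. The genotypes overlapped on day 2 and not on day 2.5, when Smchd1 matΔ was higher by 1.61 percentage points (95% interval -1.51 to 4.72, limma adjusted p = 0.963). The day 2 difference was -1.59 (95% interval -4.71 to 1.52) and rested on Smchd1 wt line 2, without which it was 0.203. The same library set the difference between the days in Smchd1 wt, which was -1.56 (95% interval -4.67 to 1.56) with it and 0.242 without it.

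The 440 bp island over the Haglr exon was the most variable. On day 2 it was at 0% and 6.25% in Smchd1 wt and at 0% in both Smchd1 matΔ lines. At day 2.5 its level was 4.55% and 3.85% in Smchd1 wt and 7.69% and 0% in Smchd1 matΔ. The groups overlapped in each comparison, and the 8 libraries held both the highest level of any HoxD island and 4 values of 0%. The depth behind these levels is unknown, and each of them can rest on few methylated reads. The genotype difference was -3.13 percentage points on day 2 (95% interval -9.86 to 3.61) and -0.350 on day 2.5 (95% interval -7.08 to 6.38). The day 2 difference rested on Smchd1 wt line 2, as it was 0 without that line and -6.25 without line 1. On day 2.5 it was 3.50 without Smchd1 matΔ line 2, -4.20 without Smchd1 matΔ line 1 and 0 without Smchd1 wt line 1. The difference between the days was 1.07 in Smchd1 wt (95% interval -5.66 to 7.80) and 3.85 in Smchd1 matΔ (95% interval -2.89 to 10.6). In Smchd1 wt it was -2.05 when line 1 was left out on day 2 and 4.20 when line 2 was. In Smchd1 matΔ it was 0 without line 1 of day 2.5 and 7.69 without line 2.

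The other Haglr island, which it shares with Gm14424, was listed at 0% in all 8 libraries. It was 1 of 265 islands listed at 0% throughout, which made up 3.55% of the islands with values, and was not tested.

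**Figure D3:**
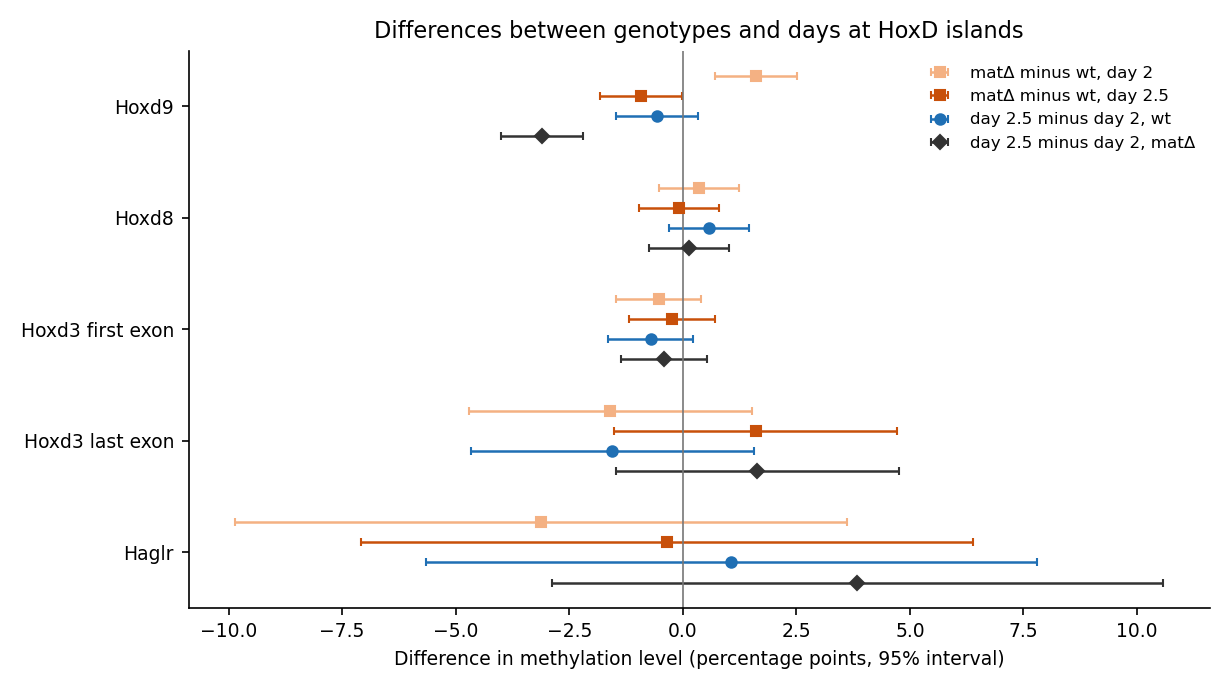
Differences in methylation level (percentage points) at the 5 tested HoxD islands, between genotypes on each day and between days in each genotype. The 95% intervals are from limma, in a fit that did not pair the days by line. In this fit 3 of the 4 Hoxd9 intervals leave out 0, the one for genotype on day 2.5 narrowly and neither genotype interval under every alternative, while at the other islands every interval includes it, with the widest at Haglr.

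Over the 5 tested HoxD islands, limma called none at an adjusted p of 0.05 in any of the 5 comparisons, and it called 0% of the 7196 islands in each. At an unadjusted p of 0.05, 1 HoxD island passed for genotype on day 2 (4.21% of all islands), 1 for genotype on day 2.5 (4.29%), none between the days in Smchd1 wt (4.07%), 1 for Smchd1 matΔ between the days (4.41%) and 1 in the interaction (4.67%). That island was Hoxd9 each time, and its passes for genotype were lost under the alternatives given above. Libraries of the groups compared did not overlap at 2 HoxD islands for genotype on day 2 (Hoxd9 and Hoxd8, against 24.8% of all islands) and at 2 on day 2.5 (Hoxd9 and Hoxd3 last exon, against 25.4%). Between the days they did not overlap at 3 in Smchd1 wt (Hoxd9, Hoxd8 and Hoxd3 first exon, against 24.9%) and at 1 in Smchd1 matΔ (Hoxd9, against 24.4%). Comparisons that share a group of libraries are not independent of each other, and the genotype differences share libraries with the differences between days.

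For the cluster as a unit, the mean over the 6 islands on day 2 was 0.685% and 2.39% for Smchd1 wt, and for Smchd1 matΔ 0.906% and 1.07%. The day 2.5 means were 1.44% and 1.24% for Smchd1 wt, and 1.90% and 0.781% for Smchd1 matΔ. Groups overlapped on both days and between the days in both genotypes, and the genotype differences of -0.548 percentage points on day 2 and 0.000839 on day 2.5 were smaller than the SD between lines, of up to 1.21. The mean over all 7461 islands was 1.41% to 1.62% in the 8 libraries.

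Hoxd9 stood apart in how closely its lines lay together, which is not separate from the lack of overlap between its groups. Both Smchd1 matΔ lines were at 0% on day 2.5, which gave an SD of 0 there. The largest SD of a Hoxd9 group was 0.308, in Smchd1 matΔ on day 2. The SD between lines, pooled over the 4 groups, was 0.156 percentage points, and only 0.723% of the 1383 islands whose mean lay within a factor of 2 of that of Hoxd9 had a lower one. Those islands were classed by the CpGs readable in the count from the sequence. The median SD was 1.13 where fewer than 40 were readable, 0.982 with 40 to 79 and 0.663 with 80 or more, the class of Hoxd9. Islands with more CpGs readable by this count thus had a smaller spread, and Hoxd9 was below the lower quartile of its class, 0.432. How many CpGs were read in the libraries is unknown. At the other end, 90.3% of the 631 islands with a mean near that of Haglr had a lower SD than its 3.51, and 15.8% had as many libraries at 0%. Hoxd8, Hoxd3 first exon and Hoxd3 last exon were near the middle of islands of like mean, with 47.5%, 47.9% and 50.5% having a lower SD.

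**Figure D4:**
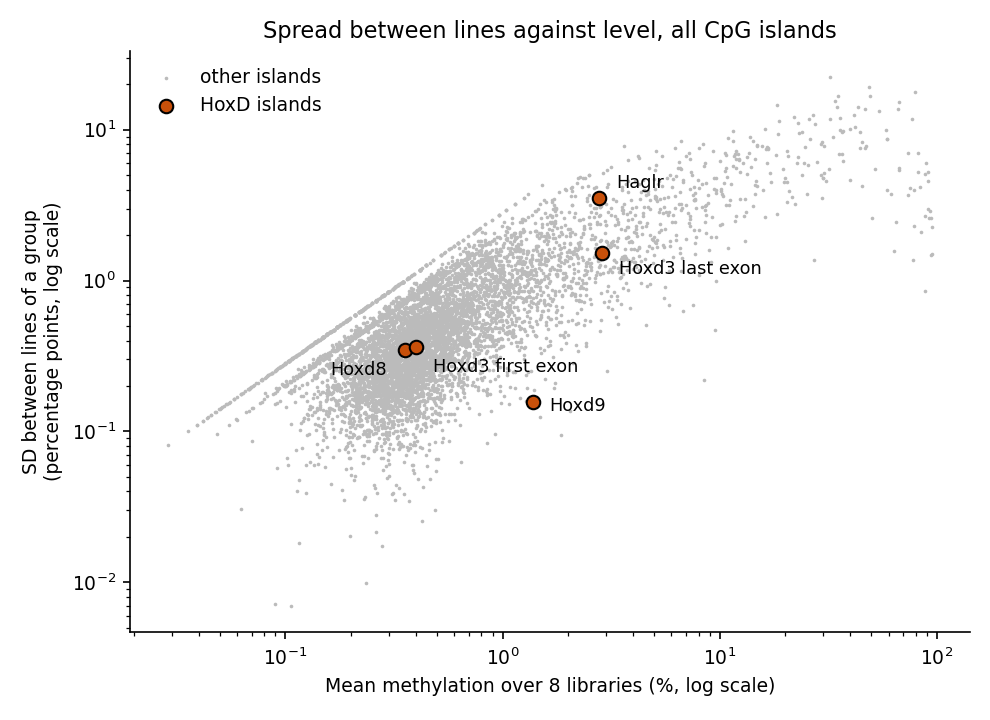
SD between lines of a group (percentage points) against the mean level over 8 libraries (%), both on log scales, for the 7193 islands with a mean and an SD above 0 (grey) and the 5 HoxD islands among them (orange). Hoxd9 lies at the lower edge of the islands of its level and Haglr towards the upper edge.

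Over the 6 HoxD islands, 21 of the 48 values (43.8%) were 0%, against 38.2% of the values of all islands. Of those 21, 8 came from Haglr and Gm14424, which was at 0% throughout. The share of values at 0% was 16.7% over the 12 islands of HoxA, 25% over 5 of HoxB and 30% over 5 of HoxC. Mean levels over the 8 libraries were 1.996% for HoxA, 2.06% for HoxB, 0.751% for HoxC and 1.30% for HoxD, and these differences between clusters were not tested. Of the 22 islands of the other clusters, limma called none at an adjusted p of 0.05 in any comparison. At an unadjusted p of 0.05, 5 were lower in Smchd1 matΔ on day 2 (22.7% of 22, against 4.21% of all islands), and 2 were lower on day 2.5 than on day 2 in Smchd1 wt (9.09%, against 4.07%). For the interaction 1 passed (4.55%, against 4.67%), and for genotype on day 2.5 and between the days in Smchd1 matΔ none did.

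Outside the cluster, 10 islands were listed within 1 Mb of it on either side and 5 had values. They lay at the transcript starts of Chn1, Atp5g3, Lnpk, Hnrnpa3 and Nfe2l2, with means over the 8 libraries of 0.293%, 0.497%, 0.374%, 0.153% and 0.669%. These neighbours were all below the means of Hoxd9, Hoxd3 last exon and Haglr, and the limma fit called none of them in any comparison. Taking each of the 5 neighbours in each of the 5 comparisons, 2 results had a limma unadjusted p under 0.05. Of all islands, 4.07% to 4.67% did in a comparison.

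The islands whose levels over the 8 libraries were most like those of Hoxd9 were those nearest to Epb41l1, Bmp6 and Plekha6, with mean absolute differences of 0.346, 0.449 and 0.450 percentage points. For Haglr they were those nearest to Drd4, Ostm1 and Drd2, with 1.04, 1.45 and 1.45 percentage points. None of these lay in a Hox cluster, but the Hox clusters held only 28 of the 7461 islands with values.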

How the data were processed

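RRBS was performed on genomic DNA of 2 Smchd1 wt and 2 Smchd1 matΔ mESC lines from separate blastocysts at days 2 and 2.5, which gave 8 libraries grouped by the genotype, day and line in their labels. The authors trimmed reads with TrimGalore (cutadapt 1.15) and the diversity script of the library kit, aligned them with Bismark 0.20.0 to GRCm38.p6 and summarised calls over CpG islands in SeqMonk, above a minimum number of reads in each library. What they deposited is the percent methylation of each island in each library, without scaling between libraries. Group means in the Hox table were not used. Read depth is not given in the values, so no interval for single values is shown, and a 0% or a low level can come from few reads.

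Percent methylation of the 7196 islands that differed between any libraries was fitted in limma 3.58.1 (R 4.3.3) as 4 group means with 4 residual degrees of freedom and a variance trend. Moderated tests were two-sided, and p-values were adjusted over the whole 7196 by Benjamini-Hochberg. The fit was tested on simulated data with added differences larger than any HoxD estimate of the full fit. That test therefore says nothing about differences of the size seen at HoxD. The SD covers 2 lines per group. Annotation came from GENCODE on the same build, on which all 13840 islands began and ended with CG. Tables were handled with pandas 2.3.3 in Python 3.11.15. Alternatives were a log2 scale, islands with a mean of at least 1%, robust moderation, scaled libraries, only the 4 libraries of a comparison, a replicate block and leaving out each library.

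A line number names the same mESC line at both days of a genotype, and only a number across genotypes. Differences between the lines at day 2 and day 2.5 correlated over islands at -0.0628 (Pearson r, Smchd1 wt) and 0.197 (Smchd1 matΔ). By rule, every HoxD island with values is described, other islands are given by counts and ranges or named for lying within 1 Mb, and the 3 islands closest to Hoxd9 and to Haglr are named. The islands and lists were chosen with earlier results of these data known.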

Additional observations from a re-analysis of the deposited data

Results flagged for a closer look

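At Hoxd9 the genotype difference had opposite signs on the 2 days, with both Smchd1 matΔ lines above both Smchd1 wt lines on day 2 and below them on day 2.5. The change of the difference was -2.53 percentage points, and limma gave it an unadjusted p of 0.00246 and an adjusted p of 0.867 (rank 11 of 7196 islands by p). Of 14 checks, which asked for the 6 islands and their mean whether no library overlapped between genotypes on either day and the order turned, and whether both lines of one genotype moved one way between the days and both of the other the opposite way, it was the only one met. Haglr and Gm14424, at 0% in all 8 libraries, could not meet either condition. At other islands and in the mean the sign of a group difference also turned, without meeting these conditions. At Hoxd9 both Smchd1 matΔ libraries were at 0% on day 2.5, against 0.962% and 0.893% in Smchd1 wt. Over all libraries and days 38.2% of the values of all islands were 0%. Of islands with a like mean and 80 or more CpGs readable by the count from the sequence, 32.7% had at least as many libraries at 0% as Hoxd9. That share counts libraries of any group, whereas those at Hoxd9 were both libraries of a single group. It therefore does not show how common the Hoxd9 arrangement is. The depth behind these values is unknown, so the low levels as well as the 0% can rest on few methylated reads or none. The same order of libraries was found at 138 islands and the opposite order at 103, and this difference was not tested.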

How the results depend on the processing

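Every processing alternative over all 8 libraries or over the 4 of a comparison left 0 HoxD islands called by limma in the 5 comparisons. For Hoxd9 between the days in Smchd1 matΔ the adjusted p was 0.212, and 0.302 on the log2 scale, 0.616 over islands with a mean of at least 1%, 0.435 with robust moderation, 0.296 with scaled libraries, 0.728 with only the 4 libraries and 0.9502 with the replicate block, which paired the days by line and changed no call at an adjusted p of 0.05. With that block the unadjusted p of the Hoxd9 genotype difference on day 2.5 went from 0.0450 to 0.0959.

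Leaving out 1 library gave 0 to 1 HoxD calls between the days in Smchd1 matΔ and 0 in the other comparisons. Over all islands it gave 73 to 121 calls per genotype or day comparison of limma and 0 to 117 for the interaction, where the full fit gave 0. Of the calls made without a library, 83.7% to 95.4% were islands with no spread left between the remaining lines, a product of leaving the lone sample without a partner, whose spread is assumed to be that of the other groups. Over islands with spread, an alternative chosen after seeing the data, 0 HoxD islands and 0 to 2 of all islands were called.

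Signs turned at islands whose differences were not called. Over the left-out libraries, the genotype difference on day 2 ran from -3.39 to 0.203 percentage points at Hoxd3 last exon, and on day 2.5 from -0.57 to 0.406 at Hoxd8 and from -4.20 to 3.50 at Haglr. The difference between the days ran from -3.35 to 0.242 at Hoxd3 last exon and from -2.05 to 4.20 at Haglr in Smchd1 wt, and from -0.36 to 0.624 at Hoxd8 in Smchd1 matΔ. The interaction ran from -0.931 to 0.0493 at Hoxd8, from -0.119 to 0.708 at Hoxd3 first exon, and from -1.07 to 6.62 at Haglr, where it was -0.350 without Smchd1 wt line 2 of day 2. The genotype difference of the mean over the 6 islands ran from -1.40 to 0.304 on day 2, and was -0.00813 with islands weighted by their CpGs and -0.0327 without Haglr. On day 2.5 it ran from -0.558 to 0.560 and was -0.506 with the median over the islands. The difference of the mean between the days ran from -1.05 to 0.655 in Smchd1 wt and from -0.207 to 0.912 in Smchd1 matΔ, where it was -0.347 without Haglr, -0.195 with islands weighted by their CpGs and -0.14 with the median. The cause of these moves was not tested. The 2 lines per group and the unknown depth limit the precision.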
